A study of Mus musculus with 8 samples.

Results

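Both Ecrg4 fragments were pooled and set against both controls in primary mouse microglia. The pool of fragments held 4 arrays, 2 of Ecrg4(71-132) and 2 of Ecrg4(133-148), and the pool of controls held 4 arrays, 2 of Fc and 2 of PBS, which together are all 8 arrays of the series. The cells were primary microglia from C57BL/6 mice, treated for 3 h. The controls were PBS alone and Fc, the constant part of an antibody. The fragments were Fc fusions of Ecrg4, named for their first and last residue, and each protein was given at 20 µg/ml. Fc was therefore present in 3 of the 4 treatments and absent from PBS alone. The titles number the arrays of each treatment as set 1 and set 2, and every set holds 1 array of each treatment. Within a set, a gene was taken as shared by the fragments where its lowest fragment array stood above its highest control array, or its highest fragment array below its lowest control array, and the same had to hold in both sets. Of 19120 genes, 2848 were higher by this rule (14.9%) and 2310 were lower (12.1%). A value below is a log2 signal with the 75th percentile of the array at 0, and a difference of 1 is a factor of 2. The gap of a gene is the distance between the pools in the set where they lie closer.

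Ecrg4 is the precursor of secreted peptides, found at the cell surface and released by proteolytic cutting. Microglia are the resident macrophages of the brain. They answer microbial products, tissue damage and antibody complexes by switching on NF-kB, AP-1 and interferon regulatory factors within hours, which induces cytokines and chemokines together with inhibitors that later shut the response down. The Fc part of an antibody can itself engage Fc gamma receptors on these cells.

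The arrays had 24214 to 29439 probes well above background. In set 1 both fragment arrays had fewer such probes (25800 and 27396) than both control arrays (29175 and 29439), while in set 2 the pools overlapped (24650 and 25365 against 24214 and 25986). Whether this plays a part in the counts was not tested. The summed linear signal of 12 microglia markers, in units of each array's 75th percentile, was 918 to 928 with the fragments and 898 to 950 in the controls of set 1. In set 2 it was 855 to 939 with the fragments and 945 to 982 in the controls, so that the pools did not overlap there. Tmem119 was well above background on 5 of 8 arrays, and Cx3cr1, the fractalkine receptor of microglia, was at 4.58 to 4.71 in set 1 and at -3.25 to -0.74 in set 2. The sum over the 3 fibroblast markers measured was 21.6 to 46.8 in set 1 and 0.337 to 0.512 in set 2. In set 1 it was 21.6 to 30.3 with the fragments and 28.7 to 46.8 in the controls. In set 2 the 2 neutrophil markers measured (S100a8 and Camp) summed to 19 to 24.1 with the fragments and 16.9 to 17.5 in the controls, and the 1 neuron marker measured, Snap25, was lower with the fragments (4.06 to 6.31 against 7.29 to 7.86). The sums of 7 oligodendrocyte markers (95.1 to 96.5 against 106 to 114), of 7 astrocyte markers (72.4 to 73.7 against 75.9 to 76.8) and of the 1 border macrophage marker measured (76.8 to 77.7 against 85.9 to 89.9) were also lower with the fragments in set 2, while in set 1 the pools overlapped in all 3. A sum follows its brightest members, and the median difference of the 7 astrocyte markers in set 2 was 1.12, higher with the fragments. Only 2 of these 7 were well above background on all 8 arrays. The fibroblast sum was higher with the fragments in set 2 (0.373 to 0.512 against 0.337 to 0.347), but rests there in part on signals not well above background. In that set Col1a1 was not well above background with PBS, Fc and Ecrg4(71-132), nor Dcn with PBS and Fc. The part of these markers in the results was not tested. In RNA of a whole culture, fewer cells of a type and less RNA per cell cannot be told apart. The labels do not tell whether set 1 and set 2 are different cultures or mice, and p-values therefore measure only the spread between these samples, which may be technical.

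No gene passed the test of the pooled difference. With the set as a block, limma called 0 of 19120 genes (0%) at an adjusted p of 0.05, and the smallest adjusted p was 0.0829. At an unadjusted p of 0.05 limma gave 2559 genes higher and 2374 lower, and an adjusted p of 0.1 was met by 373 higher and 399 lower genes. The pools that were tested mix different treatments, so the spread between the fragments and the spread between Fc and PBS both count as error. A fit with a separate mean for each of the 4 treatments, and the set as a block, takes both spreads out of the error. That fit also called 0 genes at an adjusted p of 0.05, and its smallest adjusted p by limma was 0.0979. In it an adjusted p of 0.1 was met by 26 higher and 69 lower genes. The shared genes are accordingly described by their values on each array.

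Most of the shared genes differed by little. The median difference was 0.20 among the 2848 higher genes and -0.29 among the 2310 lower genes, and their median gaps were 0.06 and 0.07. A gap over 0.5 in both sets was found for 35 higher genes (0.183% of all genes) and 34 lower genes (0.178%). The balance of higher and lower genes depends on the scaling: higher genes made up 55.2% of the separated genes here, 45.1% after quantile scaling, 59.4% after normexp background correction, 65.0% in the authors' deposited log2 table and 84.9% after scaling to the median. All 35 higher genes and all 34 lower genes with a gap over 0.5 were still separated under quantile and median scaling, and 35 and 30 of them after normexp. Differences were larger in set 2 than in set 1 for 64.5% of the higher and 76.8% of the lower genes. A further 1046 genes were separated in opposite directions in the 2 sets. A gene that is dim in one pool entered the table through the other pool, and of the genes with a gap over 0.5, 27 of 35 higher and 18 of 34 lower ones were well above background on all 8 arrays. Leaving out an array can only add separated genes, since fewer arrays have to lie apart. Without the Fc array of set 1, 20.7% of all genes were higher and 14.6% lower, and without its Ecrg4(133-148) array 18.9% and 21.3%.

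**Figure D1:**
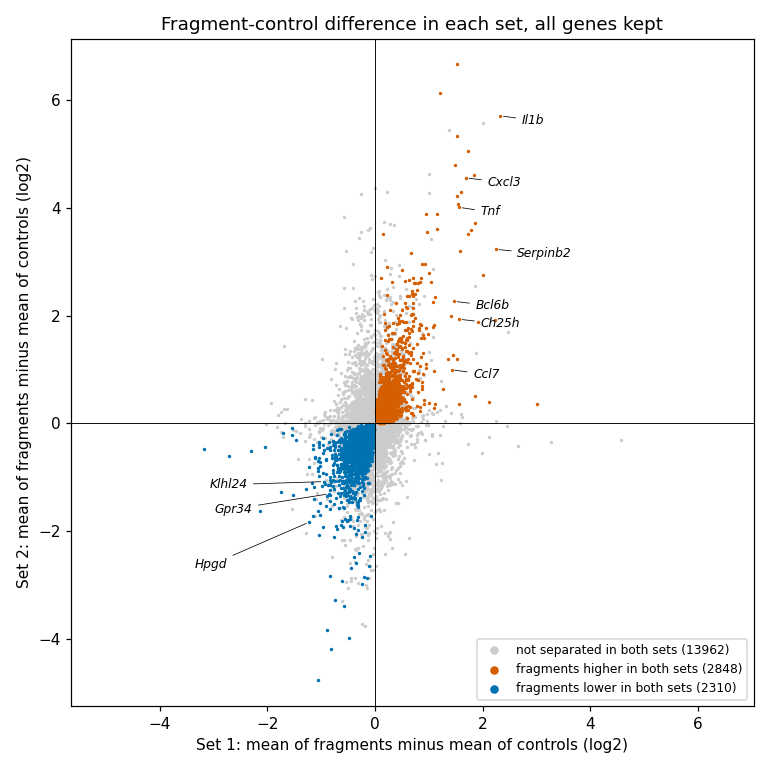
Difference between the mean of the 2 fragment arrays and the mean of the 2 control arrays (log2) in set 1 (horizontal) and set 2 (vertical), 1 point per gene for 19120 genes. Orange points are the 2848 genes whose fragment arrays lie above the control arrays in both sets, blue points the 2310 whose fragment arrays lie below, and grey points the other 13962. Il1b differs by 2.33 in set 1 and 5.71 in set 2.

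Serpinb2, which encodes the urokinase inhibitor PAI-2, had the widest gap of all genes with a symbol that were well above background on all fragment arrays. Its signal in set 1 was 1.25 with PBS, 1.89 with Fc, 3.47 with Ecrg4(133-148) and 4.16 with Ecrg4(71-132), and in set 2 it was 1.21, 1.45, 4.09 and 5.03 in the same order. All 4 fragment arrays lay above all 4 control arrays, and the order of the treatments was the same in both sets. The pooled difference was 2.74 (SE 0.33, n = 4 against 4, limma adjusted p = 0.0829). Of 19 measured members of the plasminogen and matrix protease list, 8 were higher in both sets (42.1% against 14.9% of all genes) and 0 were lower. Without the Ecrg4(133-148) array of set 1 the numbers were 13 and 2, against 18.9% and 21.3% of all genes. Plaur, the urokinase receptor, was at 5.39 and 5.58 in the controls of set 1 against 6.09 and 6.24 with the fragments, and at 6.73 and 6.84 against 7.15 and 7.32 in set 2. The collagenase Mmp13 differed by 0.82 (SE 0.16) with a gap of 0.31. Timp2, an inhibitor of matrix metalloproteases, was the member nearest to being lower in both sets and was not separated. Its 2 probes disagreed, at -0.11 and 0.14, and 1 of them was higher in both sets.

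Cytokine genes formed the list with the largest share of higher members. Of 24 measured cytokine and growth factor genes, 14 were higher (58.3% against 14.9% of all genes), 1 was lower, and the median difference was 1.36 against 0.000806 over all genes. With only genes measured above background on each of the 8 arrays, it was 12 of 19, against 16.3% of all such genes. None of the 24 passed the test, and the members were listed with earlier results of these data known.

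Il1b, the secreted interleukin that drives much of acute inflammation, ran in set 1 from 1.68 with PBS and 2.66 with Fc to 3.33 with Ecrg4(133-148) and 5.67 with Ecrg4(71-132). In set 2 the 4 values were 0.93, 2.62, 6.40 and 8.57. The fragment arrays lay above the controls of their set by 0.67 in set 1 and 3.78 in set 2. The pooled difference was 4.02 with an SE of 0.98 (limma adjusted p = 0.106). Il1a, its companion cytokine that is active without cleavage, stood at 0.01 and 0.73 in the controls of set 1 against 1.28 and 3.18, and at 0.44 and 1.19 against 3.63 and 5.43 in set 2. The pools were apart in both sets, by 0.55 in the set where they lay closer.

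Tnf, which encodes tumour necrosis factor, was at 3.32 (PBS) and 4.32 (Fc) in set 1 against 4.69 with Ecrg4(133-148) and 6.07 with Ecrg4(71-132). In set 2 it was at 1.74 and 3.19 against 5.62 and 7.33. The gap was only 0.37 in set 1, where Fc lay closer to Ecrg4(133-148) than to PBS, and 2.43 in set 2. The pooled difference was 2.79 (SE 0.73, limma adjusted p = 0.11). Il6, a cytokine that acts through gp130, followed the same order of treatments in both sets, with 2.26, 3.09, 3.30 and 5.12 in set 1 and -2.11, -0.25, 2.65 and 5.66 in set 2. Its gap in set 1 was 0.21.

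The receptor antagonist Il1rn, which blocks the interleukin-1 receptor, was separated by over 0.5 in both sets. It stood at -0.47 and -0.08 in the controls of set 1 against 1.11 and 1.37, and at 2.15 and 2.07 in the controls of set 2 against 2.77 and 3.84. The difference was 1.52 in set 1 and 1.19 in set 2 (pooled 1.36, SE 0.24, limma adjusted p = 0.0851). Il1f6, the interleukin-36 alpha gene, was at -1.99 and -1.59 against -0.73 and 0.60 in set 1 and at -4.74 and -4.86 against -1.43 and 1.95 in set 2, where its control arrays were not well above background. Ifnb1, the gene of interferon beta, was at -3.64 and -2.73 against -1.64 and -0.29 in set 1 and at -6.09 and -5.65 against -4.75 and -3.17 in set 2, with 3 fragment and 2 control arrays well above background. The pools were 1.09 apart in set 1. In set 2 both control arrays and the Ecrg4(133-148) array were not well above background, so the order of these 3 arrays was not measured.

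Several cytokine genes had the same direction of mean difference without meeting the rule. Csf2 (GM-CSF) was near -4.6 on 3 arrays of set 1 and reached -1.86 only with Ecrg4(71-132), while in set 2 it was at -6.27 and -5.82 in the controls against -1.98 and 0.77. Csf3 and Lif also overlapped in set 1, with differences of 2.63 (SE 0.78) and 1.13 (SE 0.67). These 3 genes were well above background on 2 of 4 control arrays each. Il16, a chemoattractant cytokine for cells bearing CD4, was the 1 member lower in both sets, at 0.81 and 0.68 against 0.39 and 0.18 in set 1 and at 1.57 and 1.5 against 0.90 and 0.01 in set 2.

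**Figure D2:**
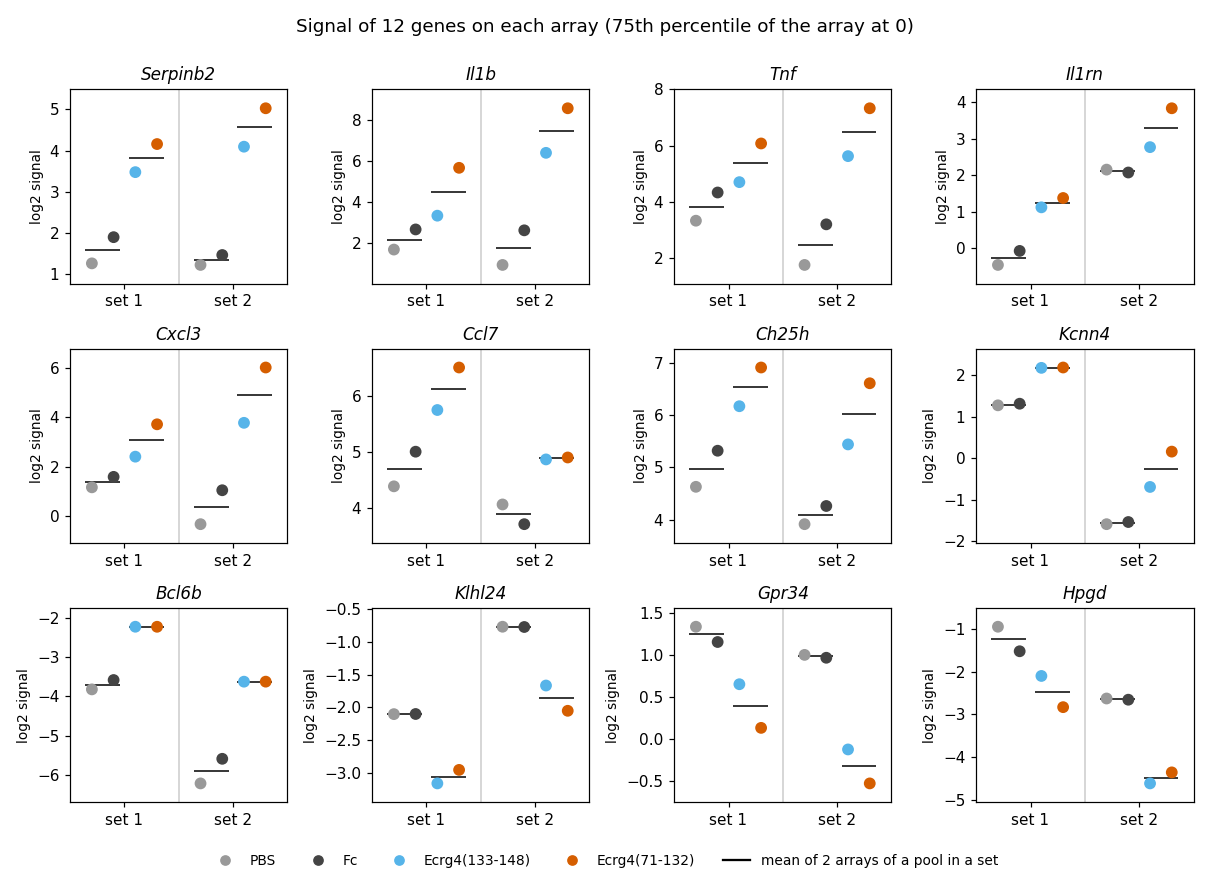
Log2 signal of 12 genes on each of the 8 arrays (75th percentile of the array at 0), with set 1 left and set 2 right in each panel. Points are single arrays coloured by treatment and black lines are the means of the 2 arrays of a pool in a set. In the first 9 panels both fragment arrays of a set lie above both control arrays, and in Klhl24, Gpr34 and Hpgd they lie below.

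Among 18 measured chemokine genes, 9 were higher (50% against 14.9% of all genes), 1 was lower and the median difference was 0.86. With only genes above background on each of the 8 arrays, 9 of 16 were higher, against 16.3% of all such genes. The list holds the monocyte attractants of the CC family. Ccl2 stood at 7.45 and 7.93 against 8.32 and 8.67 in set 1 and at 6.43 and 6.26 against 7.15 and 7.14 in set 2 (difference 0.80, SE 0.12). Ccl7 was at 4.39 and 5.01 against 5.75 and 6.51 in set 1 and at 4.07 and 3.72 against 4.87 and 4.91 in set 2 (difference 1.21, SE 0.22). Ccl3 differed by 0.90 (SE 0.14), with 0.89 in set 1 and 0.92 in set 2. These 3 had limma adjusted p-values of 0.0851 to 0.0853.

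The neutrophil attractants of the CXC family had larger mean differences in set 2, and limma's test of that difference between the sets called no gene. Cxcl2 was at 0.81 and 1.66 against 2.27 and 3.89 in set 1 and at -0.75 and 1.21 against 4.03 and 5.67 in set 2. Cxcl3 was at 1.16 and 1.58 against 2.41 and 3.72 in set 1 and at -0.34 and 1.04 against 3.78 and 6.03 in set 2. The pools did not overlap in either gene, and the pooled differences were 3.23 (SE 0.82) and 3.12 (SE 0.81). Cxcl1, of the same subfamily, did not meet the rule: its fragment arrays were at -1.98 and -0.34 in set 1, 1 below and 1 above both controls (-0.55 and -1.24), although in set 2 they were at -2.66 and -1.17 against -6.37 and -5.96. Ccl5 and Cxcl10, both interferon-linked chemokines, also overlapped with the Fc array in set 1 (Ccl5 1.56 with Fc and -0.69 with Ecrg4(133-148), Cxcl10 6.6 and 6.33).

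The promoters of 4 of these higher genes are shown because they hold a match to a site of NF-kB or AP-1, the factors that switch on many cytokine genes. Each is the 250 bases before an annotated start in RefSeq (GRCm38.p6), 5′ to 3′ on the strand of the gene, with matches in capitals. The motifs searched on both strands were the NF-kB consensus, known as the kappa-B site, and TGANTCA for AP-1, which did not overlap each other in these windows. Serpinb2 (chr1:107511173-107511422, plus strand, the first of 2 annotated starts) and Il1a (chr2:129309973-129310222, minus strand) hold an AP-1 match. Cxcl3 (chr5:90785851-90786100, plus strand) and Cxcl2 (chr5:90903649-90903898, plus strand) each hold 2 overlapping NF-kB matches, 1 on each strand. The windows of Il1b, Tnf, Ptgs2, Flrt3, Ch25h, Kcnn4, Irf4 and C5ar1, also higher with the fragments, held neither motif.
Serpinb2: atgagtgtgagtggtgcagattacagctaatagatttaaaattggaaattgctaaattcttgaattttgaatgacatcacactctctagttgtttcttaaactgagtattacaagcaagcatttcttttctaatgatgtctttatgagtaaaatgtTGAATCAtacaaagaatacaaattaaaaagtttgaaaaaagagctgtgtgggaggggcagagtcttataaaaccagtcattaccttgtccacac
Il1a: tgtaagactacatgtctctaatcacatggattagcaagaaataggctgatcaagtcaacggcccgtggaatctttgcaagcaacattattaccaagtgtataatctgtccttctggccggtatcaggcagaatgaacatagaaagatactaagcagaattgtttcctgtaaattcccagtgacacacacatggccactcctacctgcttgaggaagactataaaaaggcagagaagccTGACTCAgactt
Cxcl3: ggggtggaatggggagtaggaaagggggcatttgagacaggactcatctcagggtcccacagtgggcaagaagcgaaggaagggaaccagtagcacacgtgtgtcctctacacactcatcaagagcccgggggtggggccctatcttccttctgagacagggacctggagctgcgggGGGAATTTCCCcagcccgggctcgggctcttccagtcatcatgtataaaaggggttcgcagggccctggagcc
Cxcl2: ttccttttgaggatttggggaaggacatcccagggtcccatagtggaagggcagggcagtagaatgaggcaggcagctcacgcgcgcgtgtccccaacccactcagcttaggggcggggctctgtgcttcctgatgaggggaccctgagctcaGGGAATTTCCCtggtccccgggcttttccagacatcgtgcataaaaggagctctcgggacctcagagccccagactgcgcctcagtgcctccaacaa
Of the 27025 genes of the promoter table, 4.46% held the NF-kB motif and 7.82% the AP-1 motif in this window. Of the 10107 measured genes with a symbol and a promoter, from which the genes below come, 5.46% and 5.78% did. Among the 31 higher genes with a symbol and a gap over 0.5, 20 had a promoter in the table, of which 5 held the NF-kB motif (Cxcl2, Cxcl3, Ifnb1, Klk9 and Ak4) and 4 the AP-1 motif (Serpinb2, Il1a, Il1rn and Olr1). Among the 28 lower ones, 16 had a promoter, of which 1 held the NF-kB motif (Tbx6) and 1 the AP-1 motif (Coq8a). Another spelling of the NF-kB motif, which overlaps the consensus in part and was found in 1.85% of the measured genes (1.65% of the table), was searched first and gave 3 higher genes (Cxcl2, Cxcl3 and Il1rn) and 0 lower ones. The consensus replaced it after these counts had been seen, so the choice between the spellings was not independent of the data. Over all separated genes with a promoter, the NF-kB motif was in 6.91% of 1664 higher and 5.06% of 1404 lower genes, and the AP-1 motif in 5.95% and 5.20%. The first NF-kB spelling was in 2.34% and 1.78% of them. The cyclic AMP response element TGACGTCA, searched in the same way, was in 3.97% and 2.42% of the same genes, in 3.04% of the measured genes and in 1.77% of the table. These matches are a description of letters in a window.

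Sensors and receptors upstream of NF-kB were in part higher. Of 29 measured genes of pattern recognition and signalling adaptors, 11 were higher (37.9% against 14.9% of all genes) and 2 were lower (6.9% against 12.1%). Their median difference was 0.18. Without the Fc or the Ecrg4(133-148) array of set 1 the number higher was 17 (20.7% and 18.9% of all genes). Without the PBS or the Ecrg4(71-132) array of set 1 the number lower was 4 (18.6% and 14.2% of all genes). Olr1, a lectin-like scavenger receptor for oxidised lipoprotein, was at 1.80 and 2.13 against 2.69 and 3.22 in set 1 and at 4.15 and 4.65 against 5.67 and 6.43 in set 2. Clec4e, the receptor Mincle for mycobacterial glycolipid, differed by 1.65 (SE 0.51), 0.64 in set 1 and 2.65 in set 2. Tlr8, an endosomal receptor for RNA, was lower, at -2.46 and -2.13 against -2.82 and -2.81 in set 1 and at -0.03 and -0.10 against -0.46 and -0.94 in set 2. Among 13 genes of Fc gamma receptors and their proximal signalling, 2 were higher (Fcgr2b by 0.17 and Lyn by 0.16) and 1 was lower (Fcgrt by -0.10), close to the shares over all genes. These small counts reached 4 higher without the Fc array of set 1 or of set 2 (20.7% and 18.2% of all genes). Without the Ecrg4(133-148) array of set 1 they were 4 higher and 4 lower (18.9% and 21.3% of all genes).

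The NF-kB pathway itself had 10 of 24 measured subunits and kinases higher (41.7% against 14.9% of all genes) and 1 lower (Tab1). Their median difference was 0.24. Traf1, an adaptor of TNF receptors, stood at 0.25 and 0.56 against 0.92 and 2.19 in set 1 and at -3.11 and -2.55 against -0.31 and 2.42 in set 2. Nfkb1, which encodes the p105 precursor of p50, differed by 1.01 (SE 0.34) with a gap of 0.06. Of the 24 subunits and kinases, 6 were higher after normexp, 17 without the Fc array of set 1 and 16 without its Ecrg4(133-148) array. The shares over all genes were then 14.9%, 20.7% and 18.9%. The feedback inhibitors of the pathway had 10 of 21 members higher (47.6% against 14.9% of all genes), 1 lower (Cyld) and a median difference of 0.88. Without the Fc array of set 1, or without its Ecrg4(133-148) array, 19 of the 21 were higher (20.7% and 18.9% of all genes). Nfkbia, which encodes the inhibitor IkB alpha, was at 6.36 and 6.69 against 6.83 and 7.10 in set 1 and at 5.31 and 6.20 against 6.99 and 7.38 in set 2. Tnfaip3, the ubiquitin-editing enzyme A20, was at 3.78 and 4.07 against 4.26 and 4.79 in set 1 and at 2.78 and 3.48 against 4.77 and 6.23 in set 2. The pools were apart in both genes, by 0.14 and 0.19 in set 1. Nfkbiz and Socs3, an atypical IkB protein and an inhibitor of cytokine receptor signalling, had similar mean differences (1.64 and 1.42) but in set 1 Ecrg4(133-148) lay 0.12 and 0.07 below Fc, so both missed the rule. Deubiquitinase Cyld had 2 probes that disagreed, with differences of -0.27 and 0.04.

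Of 28 measured immediate-early genes, which are transcribed without new protein synthesis, 14 were higher (50% against 14.9% of all genes) and 2 were lower. Their median difference was 0.29. Fosl1, an AP-1 subunit, was at -0.99 and -1.45 against -0.28 and -0.38 in set 1 and at -3.78 and -3.35 against -2.31 and -1.55 in set 2 (difference 1.26, SE 0.24). Junb, another AP-1 subunit, differed by 0.88 (SE 0.20) with a gap of 0.26. Egr1, a zinc finger factor, differed by 0.71 in set 1 and 0.16 in set 2. Fos went the other way, at 1.48 and 1.34 against 1.20 and 1.12 in set 1 and at 0.01 and -0.06 against -0.16 and -0.74 in set 2. The members of 1 family of AP-1 subunits were thus on opposite sides of the controls at 3 h. Of 14 MAP kinase phosphatases and Sprouty-related inhibitors, 6 were higher (42.9% against 14.9% of all genes) and 0 lower. Dusp4 differed by 1.09 (SE 0.33), Spred1 by 0.59 (SE 0.13) and Dusp1 by 0.42 (SE 0.20). Among 14 mRNA decay regulators, 4 were higher (28.6% against 14.9% of all genes), with Zc3h12c by 1.01 and Rc3h1 (Roquin-1) by 0.44. Another 2 were lower (14.3% against 12.1%), with Zfp36l2 by -0.35. Without the Fc array of set 1 the number higher was 7, against 20.7% of all genes.

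Interferon-stimulated genes were not separated with all 8 arrays. Of 28 measured members 0 were higher and 0 were lower in both sets, and their median difference was 0.25. The count of 0 rests on 2 arrays of set 1. Without the Fc array 11 of the 28 were higher, against 20.7% of all genes. Without the Ecrg4(133-148) array 11 were higher and 1 was lower, against 18.9% and 21.3% of all genes. Against PBS alone 11 were higher (26% of all genes), and with Ecrg4(71-132) as the only fragment 16 (23.6% of all genes). Fewer arrays raise such counts for genes of any kind. The median was 0.525 with Ecrg4(71-132) and -0.00415 with Ecrg4(133-148), each against both controls. Limma called 0 of them, and 1 had an unadjusted p under 0.05.

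Enzymes of lipid mediators and of arginine use gave single members with wide differences. Ptgs2, the inducible cyclooxygenase COX-2, was at 1.12 and 1.15 against 1.65 and 3.05 in set 1 and at -3.91 and -2.83 against 1.58 and 3.95 in set 2. Hpgd, which degrades prostaglandins, was lower, at -0.96 and -1.53 against -2.10 and -2.83 in set 1 and at -2.63 and -2.66 against -4.61 and -4.35 in set 2, where the fragment arrays were not well above background. An enzyme of prostaglandin synthesis and the enzyme of its breakdown thus lay on opposite sides of the controls, with differences of 3.68 (SE 1.12) and -1.53 (SE 0.22, limma adjusted p = 0.0851). Ch25h, which makes the oxysterol 25-hydroxycholesterol, was at 4.63 and 5.32 against 6.17 and 6.91 in set 1 and at 3.92 and 4.26 against 5.44 and 6.60 in set 2 (difference 1.75, SE 0.32). Of 10 genes of nitric oxide, arginine and itaconate metabolism, 4 were higher (40% against 14.9% of all genes). Among them were the arginine transporter Slc7a2 (difference 1.05, SE 0.22) and Gch1, which makes the cofactor of nitric oxide synthase (0.76, SE 0.19). The number was 7 without the Fc array and 8 without the Ecrg4(133-148) array of set 1 (20.7% and 18.9% of all genes). Nos2 and Acod1, the nitric oxide synthase and the itaconate enzyme, were not separated because Ecrg4(133-148) lay below Fc in set 1 (-1.31 against -1.0 and 5.94 against 6.12).

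Of 22 antioxidant and cystine uptake genes, 9 were higher (40.9% against 14.9% of all genes) and 0 lower. Slc7a11, the cystine transporter, was at 0.91 and 1.29 against 1.68 and 2.41 in set 1 and at 1.17 and 1.46 against 2.58 and 3.58 in set 2 (difference 1.35, SE 0.31), and its partner chain Slc3a2 differed by 0.48 (SE 0.09). Hmox1, haem oxygenase-1, differed by 0.58 (SE 0.09). Of 26 glycolysis and hypoxia genes, 9 were higher (34.6% against 14.9% of all genes) and 0 lower. The glucose transporter Slc2a1 was at 4.99 and 5.04 against 5.52 and 5.49 in set 1 and at 4.56 and 4.69 against 5.23 and 5.65 in set 2. Of 19 costimulation and adhesion genes, 8 were higher (42.1% against 14.9% of all genes) and 1 was lower (Cd80 by -0.61). The activation marker Cd69 was higher by 2.81 (SE 0.70) and the hyaluronan receptor Cd44 by 0.55 (SE 0.10). The 2 probes of Cd80 disagreed, at -0.61 and 0.19, and on their mean it was not separated. Among the 4 EGF receptor ligands measured, Ereg (epiregulin) and Epgn were higher, but both were dim in the controls of set 2. Epgn was not well above background with Ecrg4(133-148) of set 2 either, so its order against the controls there was not measured. The 1 ligand well above background on all 8 arrays was not separated. Ereg was at -1.58 and -1.16 against -0.84 and 1.15 in set 1 and at -6.37 and -4.61 against -1.09 and 3.46 in set 2, where its control arrays were not well above background, so that it entered the table through the fragments.

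Some of the widest gaps belonged to genes outside the cytokine and NF-kB lists. Bcl6b, a zinc finger repressor related to Bcl6, was at -3.82 and -3.58 against -2.23 and -2.23 in set 1 and at -6.20 and -5.58 against -3.62 and -3.62 in set 2, where its controls were not well above background. Its pooled difference was 1.87, and 0.688 after normexp. Kcnn4, a calcium-activated potassium channel, was at 1.27 and 1.31 against 2.18 and 2.18 in set 1 and at -1.59 and -1.54 against -0.69 and 0.16 in set 2. The Fc and PBS arrays of Kcnn4 differed by 0.05 at most within a set, and its gap was 0.85. Flrt3, a leucine-rich adhesion protein, differed by 2.38 (SE 0.55), and Irf4, an interferon regulatory factor of alternatively activated macrophages, by 1.43 (SE 0.42). C5ar1, the receptor of the complement peptide C5a, was at 2.95 and 3.15 against 3.86 and 3.93 in set 1 and at 1.97 and 2.09 against 2.75 and 3.46 in set 2. The kallikrein gene Klk9 differed by 1.35 (SE 0.22). By p-value the first higher genes also included Tmem171, Chchd4, a mitochondrial import protein, and Pik3cb, a PI3-kinase subunit, with differences of 0.68 (SE 0.08), 0.40 (SE 0.05) and 0.39 (SE 0.05). A probe of Prmt6 was higher by 0.56, but its 3 probes ranged from -0.30 to 0.56.

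**Figure D3:**
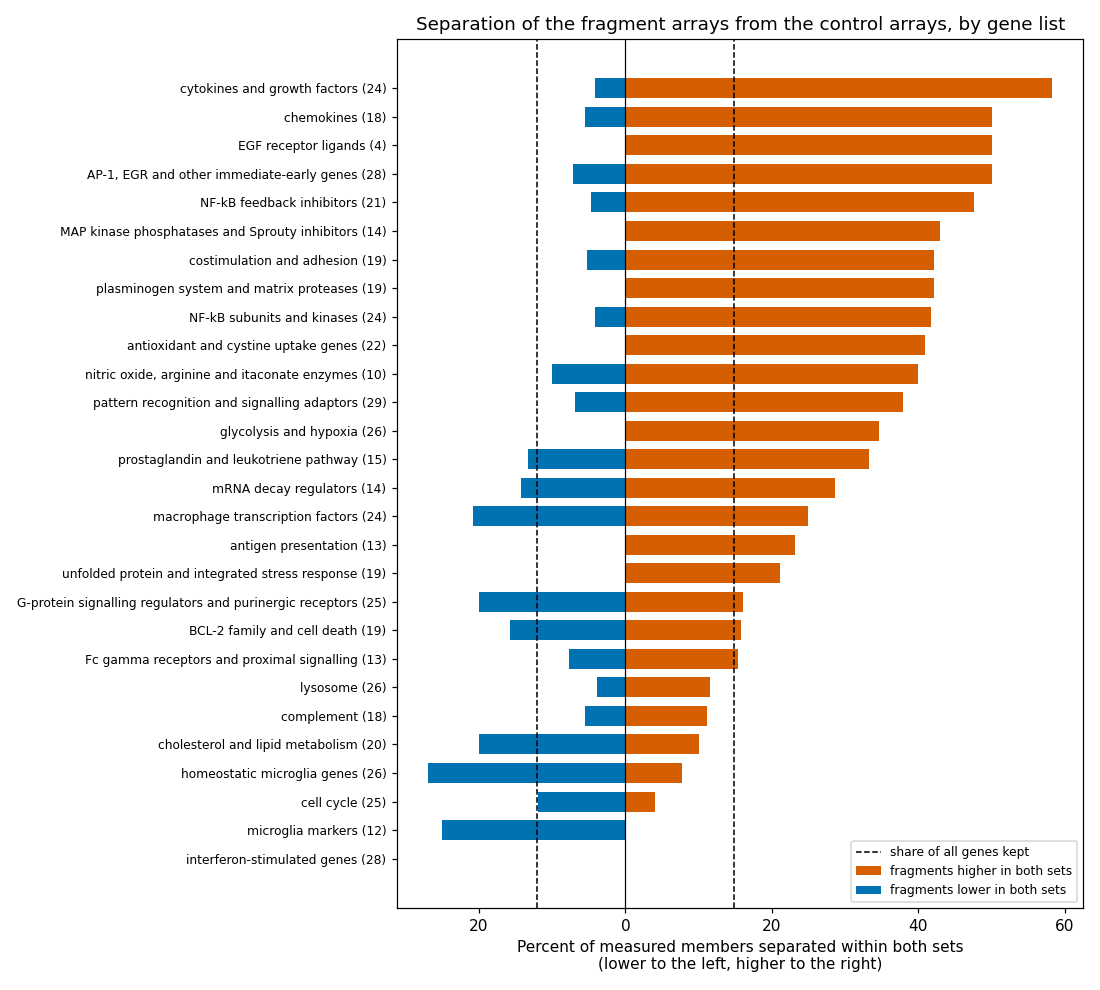
Percent of the measured members of each of 28 gene lists whose fragment arrays lie above (orange, right) or below (blue, left) the control arrays in both sets, with the number measured in brackets. Dashed lines mark the shares over all 19120 genes, 14.9% higher and 12.1% lower. The cytokine list reaches 58.3% higher, and the homeostatic microglia list has 26.9% lower. Under median scaling the latter falls to 1 of 26 genes, and the share over all genes to 4.18%.

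The lower genes with wide gaps came from no single one of the lists. Klhl24, a ubiquitin ligase adaptor, was at -2.10 and -2.10 against -3.15 and -2.95 in set 1 and at -0.77 and -0.78 against -1.67 and -2.05 in set 2 (difference -1.02, SE 0.09, limma adjusted p = 0.0829). Ypel3 was at 2.59 and 2.51 against 1.73 and 1.78 in set 1 and at 3.67 and 3.54 against 3.05 and 2.86 in set 2 (difference -0.72, SE 0.07). In both genes PBS and Fc lay close together and both fragments lay below. Nat8l, which makes N-acetylaspartate, differed by -1.25 (SE 0.21), and Slit1, a guidance ligand, by -0.99 (SE 0.15). Coq8a, of coenzyme Q synthesis, differed by -0.91 (SE 0.12) and Kifc2, a kinesin, by -0.92 (SE 0.12). Tbx6, a T-box factor, differed by -1.08 with the brighter of its 2 probes and by -0.27 with the other. Ikzf2, an Ikaros family factor, and 0610040J01Rik differed by -1.45 (SE 0.42) and -1.36 (SE 0.27), each with 2 of 4 fragment arrays well above background. The other lower genes of smallest p were Acrbp, Nek8, Fbxl20 and Zfp579, with differences of -0.56 to -0.35.

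Homeostatic microglia genes, which mark unstimulated microglia, had 7 of 26 measured members lower (26.9% against 12.1% of all genes) and 2 higher, with a median difference of -0.07. This balance turned under median scaling, with 1 lower and 4 higher, where 4.18% of all genes were lower and 23.5% higher. In the authors' deposited table it was 5 lower and 3 higher, against 9.7% and 18% of all genes. Without the Fc array of set 1 it was 8 lower and 4 higher, against 14.6% and 20.7% of all genes. Gpr34, a lysophosphatidylserine receptor, was at 1.34 and 1.16 against 0.65 and 0.13 in set 1 and at 1.0 and 0.97 against -0.12 and -0.53 in set 2 (difference -1.08, SE 0.16, limma adjusted p = 0.0851). P2ry12, the ADP receptor of microglial processes, was at 0.75 and 0.85 against 0.64 and 0.60 in set 1 and at -0.69 and -0.68 against -1.11 and -1.52 in set 2. Its separation was lost under median scaling. Csf1r, the receptor for the survival factor CSF-1, and Cx3cr1 were not separated, with differences of -0.07 and 0.88. Among 24 macrophage transcription factors 6 were higher (25% against 14.9% of all genes) and 5 lower (20.8% against 12.1%). The number lower was 8 without the Fc array and 9 without the Ecrg4(133-148) array of set 1 (14.6% and 21.3% of all genes). Of the lower ones the corepressor Cbfa2t3 was at -0.79 and -0.87 against -1.24 and -2.07 in set 1 and at -0.77 and -0.94 against -1.63 and -2.18 in set 2. The chemokine receptor Cxcr4 differed by -0.87 (SE 0.16), the BH3-only death gene Bmf by -1.35 (SE 0.29) and the lipid-sensing receptor Pparg by -0.41 (SE 0.07), each separated in both sets. The lysosome list had 3 higher and 1 lower of 26 members and the cell cycle list 1 higher and 3 lower of 25. None of these counts exceeded the shares over all genes, 14.9% higher and 12.1% lower. After quantile scaling 9 lysosome and 11 cell cycle genes were lower, against 15.8% of all genes. Without the PBS array of set 1 the numbers lower were 4 and 13 (18.6% of all genes). Without the Ecrg4(133-148) array of set 1 they were 4 and 12 (21.3% of all genes).

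The fragments inside the pool were also set against each other, and no gene passed that test. Over all genes, Ecrg4(71-132) lay above Ecrg4(133-148) in both sets for 23.7% and below it for 33.5%. Among the 2848 shared higher genes these shares were 47.8% and 8.11%, and among the 2310 shared lower genes 5.67% and 66.1%. The farther array from the controls was thus more often Ecrg4(71-132) in both directions. Limma, with 1 mean per group and the set as a block, called 0 genes for Ecrg4(133-148) minus Ecrg4(71-132) (smallest adjusted p 0.714, 1210 genes at an unadjusted p under 0.05). For Il1b this difference was -2.25 (95% interval -5.24 to 0.73), for Tnf -1.54 (-3.71 to 0.62) and for Serpinb2 -0.81 (-1.73 to 0.11). For Bcl6b it was 0.00 (-0.75 to 0.75) and for Klhl24 0.09 (-0.32 to 0.50). The intervals leave room for differences in either direction in all 5.

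**Figure D4:**
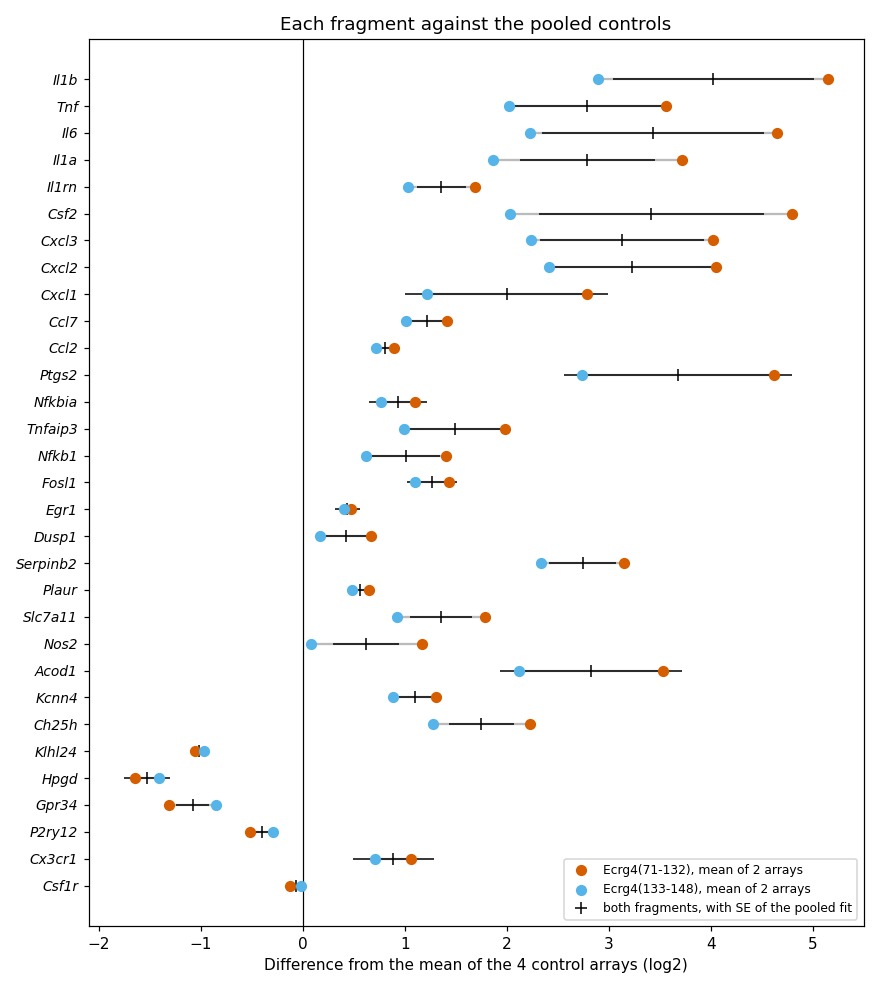
Mean difference of each fragment (2 arrays) from the 4 control arrays on the log2 scale for 31 genes, with black ticks and bars for both fragments and the SE of the pooled fit. Orange points (Ecrg4(71-132)) lie farther from 0 than blue points (Ecrg4(133-148)) for all 31 genes shown, for example 5.15 against 2.89 in Il1b and 3.14 against 2.33 in Serpinb2. The genes were picked for the figure, and Bcl6b, not shown, was at 1.87 with both fragments.

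The controls inside the pool were compared in the same way. Fc lay above PBS in both sets for 39.6% of all genes and below it for 16.7%, and among the shared higher genes for 60.5% and 5.34%. Among the shared lower genes Fc lay below PBS for 29.4% and above it for 22.1%. PBS lowest, then Fc, then Ecrg4(133-148) and Ecrg4(71-132) highest was the order found in both sets in 882 of the 2848 higher genes. Among them were Il1b, Tnf, Il6, Cxcl3 and Serpinb2. The rule for shared genes already sets the pools apart, so only the steps inside each pool were free. Those steps alone held in 2195 of all 19120 genes. The mirror order was found in 474 of the 2310 lower genes, and its steps inside the pools in 1343 of all genes. Limma called 0 genes for Fc minus PBS (355 at an unadjusted p under 0.05). In Tnf that difference was 1.23 (95% interval -0.94 to 3.39) and in Il1b 1.34 (-1.65 to 4.32). Kcnn4 and Klhl24 were examples without a step between PBS and Fc, with differences of 0.05 (-0.60 to 0.69) and 0.00 (-0.41 to 0.41).

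The size of the pooled difference was compared between the sets with an interaction term. Limma called 0 genes (smallest adjusted p 0.106, 1478 at an unadjusted p under 0.05). In Ptgs2 the difference was 1.22 in set 1 and 6.13 in set 2, and the interaction had an unadjusted limma p of 0.00911 (adjusted 0.589). In Ccl2, Ccl3, Ccl7 and Il1rn set 2 minus set 1 was 0.00 (SE 0.27), 0.03 (SE 0.31), -0.43 (SE 0.45) and -0.33 (SE 0.50), and errors of this size leave room for a difference between the sets. For Il1b, Tnf and Cxcl3 it was 3.38 (SE 1.59), 2.45 (SE 1.20) and 2.86 (SE 1.27).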

How the data were processed

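The 8 arrays are one-colour Agilent arrays (Cy3) of total RNA, on 1 slide and in 1 scan, with the 2 sets in separate columns of the slide. The deposited files hold background-subtracted spot intensity on a linear scale, for which the submitters' processing notes name Agilent Feature Extraction, version 11.0.1.1, as the authors' tool, and flags for spots. The authors' deposited log2 table followed the log2 intensity minus 1 constant per array (r = 1 on all 8 arrays, column medians of -4.47 to -4.20), was not centred by gene and served as an alternative. No source used here states how that constant was chosen.

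Each array's 75th percentile was subtracted from its log2 intensities, without 104 probes with outlying spots. No spot was saturated. Of 55681 probes, 27978 had a RefSeq accession with a symbol in the table of GRCm38.p6, and 27599 are called as in the files. The filter asked for a treatment whose 2 arrays were both well above background (25250 probes), and the brightest probe of a gene was used, for 19120 genes, 12597 with a symbol. Limma 3.58.1 in R 4.3.3 was fitted with the set as a block (5 residual degrees of freedom), with Benjamini-Hochberg adjustment over all genes and a threshold of 0.05. The code was tested on simulated data. Set differences correlated at 0.783 to 0.862 in the 6 pairs of treatments and the first principal component (71.5%) separated the sets, so set numbers were taken as pairs. The number of arrays limits the precision.

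Named genes are those with the largest gap (12 higher and 8 lower), the 6 smallest p-values in each direction and a fixed set. Members of each list with the largest gaps in the higher or the lower direction were added. Genes named only as promoter holders, as the single higher or lower members of a list, or as examples in a list with gaps outside that rule were chosen after their values were seen. Members, 36 lists and rules were chosen with earlier results of these data known. Alternatives covered background, scaling, filters, probes, model, controls, fragments and single arrays left out.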

Additional observations from a re-analysis of the deposited data

Results flagged for a closer look

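Of 338 groups of 4 arrays looked at (fragment or control arrays of 169 named genes), 3 held 1 array far from the other 3. The limit used marks about 1 in 20 groups by chance where all 4 arrays are drawn alike. Each group here mixes 2 sets and 2 treatments, so that rate does not apply. Ikzf2 was at -2.22 with Ecrg4(133-148) in set 2 and at -4.33 to -4.00 on the other fragment arrays. Both Ecrg4(71-132) arrays of Ikzf2 were not well above background, so the distance to them was not measured. Of its 2 probes, 1 was lower in both sets. Bcl2l11, a BH3-only death gene, was at -1.38 with Fc in set 2 and at -1.15 to -1.10 on the other control arrays. Adm, the adrenomedullin gene, was at -1.0 with Ecrg4(133-148) in set 2 and at 0.09 to 0.16 on the other fragment arrays. The antigen presentation gene H2-DMa lay in opposite directions in the sets: its fragment arrays were above the controls by 0.06 on average in set 1 and below by 0.20 in set 2, a difference of -0.26 (SE 0.10, limma adjusted p = 0.589).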

How the results depend on the processing

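Without the replicate block, limma still called 0 genes (1340 at an unadjusted p under 0.05), so the pairing changed no call at 0.05. Moderation with an intensity trend called 9 higher and 9 lower genes (adjusted p = 0.0494), among them Serpinb2, Chchd4, Klhl24, Ypel3, Acrbp, Fbxl20 and Zfp579, and an adjusted p of 0.1 gave 373 and 399. Leaving out 1 array gave 0 to 1 higher call (Kcnn4, adjusted p = 0.0143 without Ecrg4(71-132) replicate 2) and 0 to 1 lower call (Brd8dc, 0.0484 without Ecrg4(133-148) replicate 2). Of the separated higher genes (2848), the count was 759 with the sets not kept apart, 4490 under median scaling, 4971 against PBS alone, 4505 for Ecrg4(71-132) alone, 35 with a gap over 0.5 and 3 with a gap over 1. Of the separated lower genes (2310), it was 425, 799, 4131 (against Fc alone), 4882, 34 and 1 in the matching settings, and 2578 to 4066 with 1 array left out (3561 without PBS replicate 1, 4066 without Ecrg4(133-148) replicate 1). The median of the interferon-stimulated list was -0.00415 for Ecrg4(133-148) alone, and that of the astrocyte markers (0.342) was -0.0393 after normexp and -0.152 on probes well above background on all arrays. The causes were not tested. The alternatives for the sets not kept apart, the gap over 1, single arrays left out of the separation and the spelling of the NF-kB motif were chosen after seeing the data. Of 3699 values of named genes under alternatives, 48 had the opposite sign to the main fit, all in genes without an unadjusted limma p under 0.05 there. A further 8 kept the sign and passed the threshold. Changes of size without a change of sign were not counted.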
